A study of Saccharomyces cerevisiae with 48 samples.

Results

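The comparison described here set budding yeast (Saccharomyces cerevisiae) that lived on a BD1-mutant copy of BDF1 against yeast that lived on an unmodified copy, after both had been treated with auxin. It used 6 of the 48 libraries of the series: the 3 of strain RDY235 and the 3 of strain RDY234 that were treated with IAA, as their labels give it. The 6 DMSO libraries of the same strains served as the background without auxin. Both strains carried pGPD1-OsTIR1:HIS3, which makes the plant auxin receptor from the GPD1 promoter, and degron-tagged chromosomal genes, BDF2-3xV5-mAID::KanMX and BDF1-3xV5-mAID::URA3. RDY234 also carried pMD28:TRP1, an integrated plasmid with unmodified BDF1. RDY235 carried pMD30:TRP1 in its place, with BDF1 mutated in the first bromodomain per the study's plasmid list. Cultures in rich medium at 30 °C received 1 mM IAA in DMSO, or DMSO alone, for 3 h, and then 5 mM 4-thiouracil (4tU) for 6 min per the labels (the study's methods state a shorter time).

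Bdf1 and Bdf2 are the BET proteins of budding yeast. Each has a pair of bromodomains, pockets that bind acetylated lysines such as those on the histone H4 tail, and an extra-terminal domain that binds partner proteins. Bdf1 is known to work together with TFIID at promoters and with the SWR1 complex, and its bromodomains are numbered from the N-terminus as BD1 and BD2. The question of the comparison was what a cell can transcribe when BD1 of its remaining Bdf1 is altered.

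Each strain derived from a single parent, RDY73, and no second clone of either was included, so the effect of the mutation and of any other difference between the 2 strains cannot be told apart. The files count reads of the tagged BDF1 and of the plasmid copy together, and the residual level of the tagged proteins was not measured in them. Replicates A to C are biological per the study's methods, whose text does not say whether they were grown on the same day. In the 6 libraries, S. cerevisiae reads numbered 4622023 to 7406875 and T>C reads 463815 to 853647. They also held 393296 to 740264 reads of Schizosaccharomyces pombe, whose cells had been mixed in as a spike-in. A T>C read carries at least 2 T-to-C conversions and stands for newly made RNA, whereas total reads stand for new and older RNA together. The study's methods name 3′ mRNA sequencing libraries. Whether these sampled mitochondrial, ribosomal, transfer, small nuclear or small nucleolar RNA as fully as mRNA was not tested. Values below are reads divided by a spike-in size factor, called normalized reads. RDY73, with no further BDF1 copy, checked the degron: its median T>C log2 change under IAA was -5.57.

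At the level of whole libraries, the BD1 mutant had a larger share of T>C reads and fewer total reads per spike-in read. T>C reads made up 9.29%, 10.0% and 9.44% of S. cerevisiae reads in RDY234 IAA replicates A, B and C, and 12.01%, 11.4% and 11.5% in RDY235 IAA. Every BD1-mutant library was above every library with unmodified BDF1, and the means were 9.59% ± 0.392 and 11.6% ± 0.315 (SD, n = 3). The number of S. cerevisiae reads per S. pombe read was 13.1, 11.8 and 12.2 in RDY234 IAA and 9.14, 10.9 and 11.0 in RDY235 IAA. Here every BD1-mutant library was below every library with unmodified BDF1, and the mean changed by -16.4%. For both measures the exact permutation test gave p = 0.1 (two-sided, n = 3 against 3), the smallest this design allows, and 0.2 after adjustment over 8 tests. Without RDY235 IAA replicate A, the lowest library, the difference in total reads per spike-in read shrank from -2.02 to -1.43.

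The number of T>C reads per S. pombe read overlapped between the strains, at 1.22, 1.18 and 1.15 in RDY234 IAA and 1.098, 1.24 and 1.26 in RDY235 IAA (exact permutation p = 0.8, n = 3, adjusted 0.8). Under DMSO, the same shifts were present: the T>C shares were 10.2%, 8.09% and 9.42% in RDY234 and 11.8%, 12.1% and 11.8% in RDY235, and total reads per S. pombe read changed by -17.7%. Both whole-library differences were thus present without auxin. The T>C share of the S. pombe reads, which came from the same added cells, overlapped between RDY234 IAA and RDY235 IAA (2.85% and 2.97% on average). Fewer S. cerevisiae cells in the mix and less RNA per cell cannot be told apart in these libraries.

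**Figure D1:**
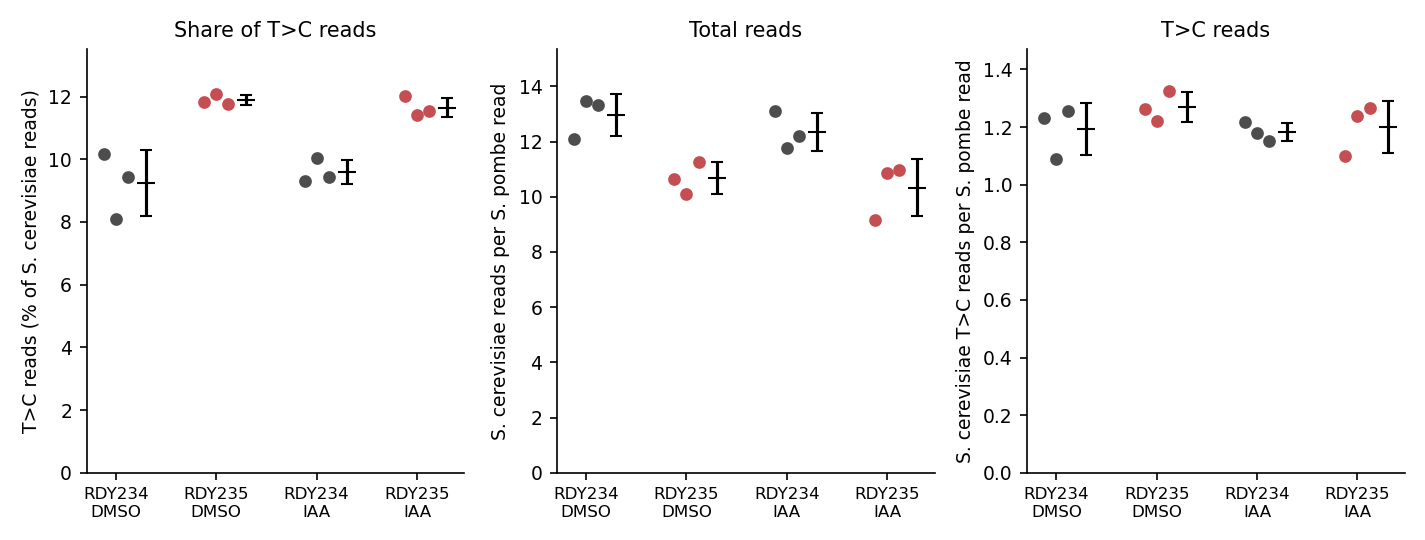
Whole-library measures for 4 groups of 3 libraries: T>C reads as a percentage of S. cerevisiae reads, S. cerevisiae reads per S. pombe read, and S. cerevisiae T>C reads per S. pombe read. Points are libraries A to C from left to right, and bars are means ± SD. RDY235 lies above RDY234 in the share and below it in total reads under both treatments, while the T>C reads per spike-in read overlap under IAA.

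Gene by gene, few differences in new RNA between the 2 strains passed the test under IAA. Of 5118 genes with enough T>C reads to test, 7 (0.137%) passed an adjusted p of 0.05 with a difference of at least 2-fold, and 9 (0.176%) passed that p at any fold, 2 lower and 7 higher. The any-fold count depended on the fit: it was 14 lower and 46 higher with TMM scaling, 21 and 39 with S. cerevisiae median of ratios, and 103 and 168 when the 6 compared libraries were fitted alone. The median log2 difference in T>C reads was -0.04, and the middle 90% of genes lay between -0.52 and 0.44. At an unadjusted p under 0.05 there were 374 genes. The 95% interval of the T>C difference lay wholly within 2-fold in either direction for 4316 genes (84.3%), so for most genes a larger change in new RNA was outside the interval, while smaller changes were not resolved (median SE 0.25 on the log2 scale).

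Total reads behaved differently. They were lower in the BD1 mutant for 1711 genes (33.4%) and higher for 55 (1.07%) at an adjusted p under 0.05, and 22 genes (0.43%) also passed 2-fold, 14 lower and 8 higher. The median log2 difference in total reads was -0.31 (-0.37, -0.26 and -0.30 in RDY235 IAA replicates A, B and C, each against the RDY234 IAA mean). This shift rested on the spike-in: with TMM scaling, which sets the typical gene to no change, the median was 0.01 and the split became 177 lower and 305 higher. The 1766 calls fell to 690 without RDY235 IAA replicate A, to 779 without RDY234 IAA replicate A and to 1105 without RDY234 IAA replicate B. Changes of gene groups in total reads are therefore read below against the median of all genes.

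**Figure D2:**
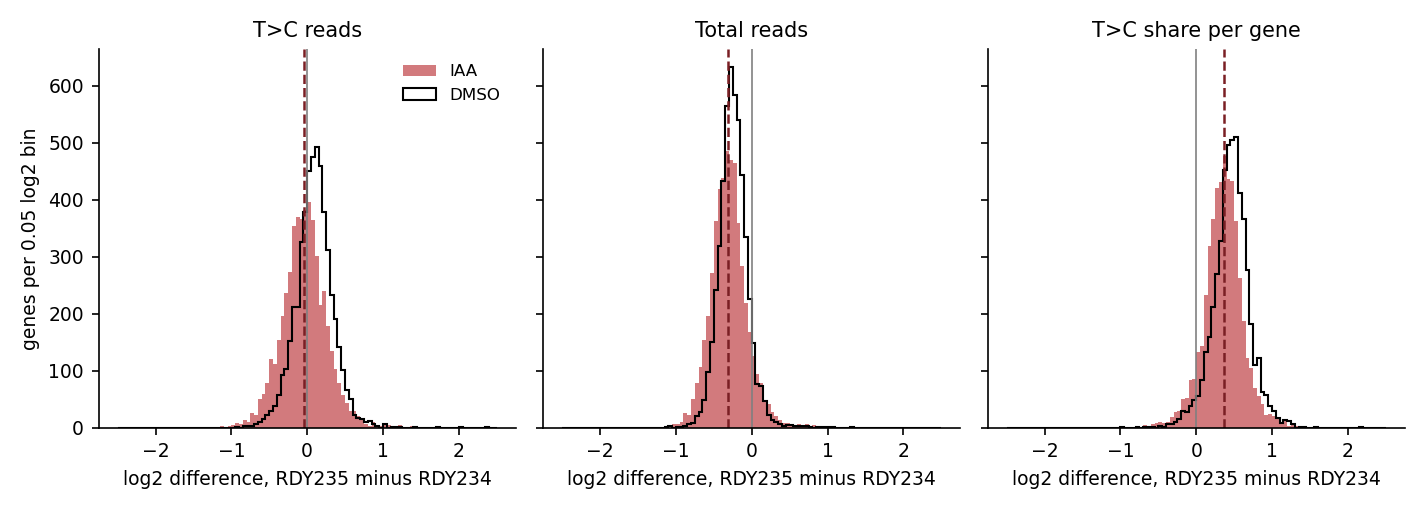
Number of tested genes (5118) per bin of the log2 difference between RDY235 and RDY234, for T>C reads, total reads and the T>C share of each gene. Filled bars are IAA and outlines DMSO, the dashed line is the median under IAA, and the solid line is 0. Under IAA the T>C distribution sits at a median of -0.04, that of total reads at -0.31 and that of the share at 0.36.

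The 2 genes with fewer T>C reads were IMD2 and NCE103. IMD2 (YHR216W, chromosome VIII, 554396 to 556217, plus strand, R64) encodes an inosine monophosphate dehydrogenase, the enzyme at the entry to guanine nucleotide synthesis, and is known for transcription start sites chosen by the GTP level. Its normalized T>C reads were 108, 133 and 113 in RDY234 IAA and 51.6, 51.1 and 46.9 in RDY235 IAA. The BD1-mutant libraries were all lower, with a narrow spread (log2 difference -1.24, SE 0.240, adjusted p = 0.00148). Its total reads fell further, from 1405, 1584 and 1366 to 484, 412 and 392 (-1.76, SE 0.199, adjusted p = 2.12e-08). The T>C share of IMD2 was thus higher in the mutant, by 0.57 on the log2 scale (adjusted p = 0.0085), against a median of 0.36 for all genes. All 6 genes of IMP dehydrogenase and GMP synthesis had a higher share, with a median of 0.56. Under DMSO the T>C difference was -0.55 (adjusted p = 0.999), and total reads were lower by a log2 difference of -1.10 (adjusted p = 0.00124).

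The other genes of the pathway did not share the fall in T>C reads. Of the 6 members of the list of IMP dehydrogenase and GMP synthesis, IMD2 alone passed the test in T>C reads, and the list median was 0.14. In total reads IMD2, IMD3 and IMD4 were lower, with IMD3 at -0.50 (adjusted p = 0.00618) and IMD4 at -0.53 (adjusted p = 0.00199). Both encode sister IMP dehydrogenases. GUA1, the GMP synthase gene, was at -0.08 (adjusted p = 0.585), and the list median was -0.42. With TMM scaling that median was -0.10 and 1 member, IMD2, was lower. The IMD genes resemble each other, but 1.35% of the IMD2 reads in the compared libraries mapped to several places.

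NCE103 (YNL036W, chromosome XIV, 559814 to 560729, plus strand) encodes carbonic anhydrase, which supplies bicarbonate to cells growing in air. Its normalized T>C reads were 454, 174 and 560 in RDY234 IAA and 149, 128 and 129 in RDY235 IAA. The groups did not overlap, but replicate B of RDY234 IAA lay close to the mutant and far below its own group (log2 difference -1.56, SE 0.344, adjusted p = 0.0154). Total reads followed the same pattern, 1244, 527 and 1475 against 355, 331 and 356 (-1.64, SE 0.413, adjusted p = 0.00379). In DMSO the values were 213, 161 and 248 in RDY234 and 238, 198 and 425 in RDY235, so the difference there was 0.46. The difference between the IAA and DMSO contrasts, -2.02, had an adjusted p of 0.287. The call in T>C reads was lost on leaving out any single library other than RDY234 IAA replicate B, with adjusted p up to 0.346 without RDY234 IAA replicate C.

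Among the genes with more T>C reads, YGP1 and TDH1 belong to the general stress response. YGP1 (YNL160W, chromosome XIV, 336545 to 337859, plus strand) encodes a secreted glycoprotein made when growth slows. Its normalized T>C reads were 42.1, 68.8 and 49.4 in RDY234 IAA and 137, 120 and 126 in RDY235 IAA, with no overlap (log2 difference 1.28, SE 0.225, adjusted p = 0.000205). Total reads rose alike, from 389, 414 and 415 to 1222, 1079 and 1031 (1.45, SE 0.138, adjusted p = 1.06e-10). YGP1 was also higher in total reads under DMSO (1.04, adjusted p = 7.12e-06).

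TDH1 (YJL052W, chromosome X, 338271 to 339519, plus strand) encodes the minor glyceraldehyde-3-phosphate dehydrogenase, which is known to rise in stationary phase. Its normalized T>C reads were 46.3, 51.2 and 53.2 in RDY234 IAA and 88.9, 118 and 88.2 in RDY235 IAA (log2 difference 0.96, SE 0.235, adjusted p = 0.0488). Total reads rose from 512, 627 and 536 to 1347, 1499 and 1312 (1.31, adjusted p = 2.51e-07). The 2 groups did not overlap in either measure. The T>C difference sat at the threshold and no longer passed on leaving out any single library (adjusted p 0.0667 to 0.441).

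RNR2 (YJL026W, chromosome X, 392404 to 393853, plus strand) encodes the small subunit of ribonucleotide reductase, which makes the building blocks of DNA. Its T>C reads were 78.9, 79.1 and 83.5 in RDY234 IAA and 163, 168 and 141 in RDY235 IAA, again without overlap (log2 difference 0.96, SE 0.225, adjusted p = 0.0352). The partner subunit gene RNR4 was at 0.28 (adjusted p = 0.896). PRY1 (YJL079C, chromosome X, 289625 to 290774, minus strand) encodes a secreted protein that binds sterols. Its T>C reads were few, 5.26, 4.39 and 10.4 against 22.2, 23.4 and 29.1 (1.82, SE 0.435, adjusted p = 0.0389). Every BD1-mutant library exceeded every RDY234 library. Both calls depended on all 6 libraries: leaving out any single library raised the adjusted p to between 0.0614 and 0.252 for RNR2 and between 0.0613 and 0.441 for PRY1.

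TRP1 is the marker of the plasmid in both strains. Its T>C reads were 17.9, 14.6 and 13.3 in RDY234 IAA and 27.0, 46.8 and 46.9 in RDY235 IAA (log2 difference 1.38, SE 0.329, adjusted p = 0.0389). Total reads overlapped, at 128, 98.1 and 106 against 107, 179 and 149 (0.37, adjusted p = 0.0916). The T>C call was kept without RDY235 IAA replicate A and lost on leaving out any other single library. Its tested neighbours did not pass, with SOK1 at 0.29 and SNQ2 at 0.17 in T>C reads.

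The remaining 2 genes with more T>C reads lie in the ribosomal DNA of chromosome XII. ETS2-2 (460462 to 460922, minus strand) covers the 3′ external transcribed spacer of a ribosomal RNA repeat, a piece removed during rRNA maturation. Its normalized T>C reads were 26.3, 23.4 and 16.1 in RDY234 IAA and 79.4, 153 and 148 in RDY235 IAA, and its total reads were 134, 96.6 and 86.4 against 248, 489 and 524. No library of one strain overlapped with the other (T>C log2 difference 2.53, SE 0.300; total 1.99, SE 0.248). The other annotated copy, ETS2-1, had too few reads to be tested, but its raw T>C counts were 1, 4 and 3 in RDY234 IAA and 13, 13 and 12 in RDY235 IAA. The annotated spacer is identical in the 2 copies over all 211 bases, while the 250 bases counted beyond its end are 74.8% identical, so reads wholly within the spacer cannot be assigned to 1 copy. Of the ETS2-2 reads in the compared libraries, 2.88% mapped to several places. Its interval overlaps YNCL0020C and YNCL0021C on the same strand, whose reads cannot be told apart from its own where they overlap.

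YLR154C-H (468577 to 468958, minus strand), a short reading frame inside the rDNA, had T>C reads of 113, 90.8 and 73.1 in RDY234 IAA and 228, 369 and 405 in RDY235 IAA (1.86, SE 0.279, adjusted p = 3.37e-06). Nearly all of its reads mapped to several places. No other tested rDNA interval passed in T>C reads. Of 19 tested, 2 passed, 4 were above 0 and the list median was -0.23. Under DMSO, ETS2-2 (2.01, adjusted p = 1.35e-05) and YLR154C-H (1.70, adjusted p = 0.000116) were higher as well.

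**Figure D3:**
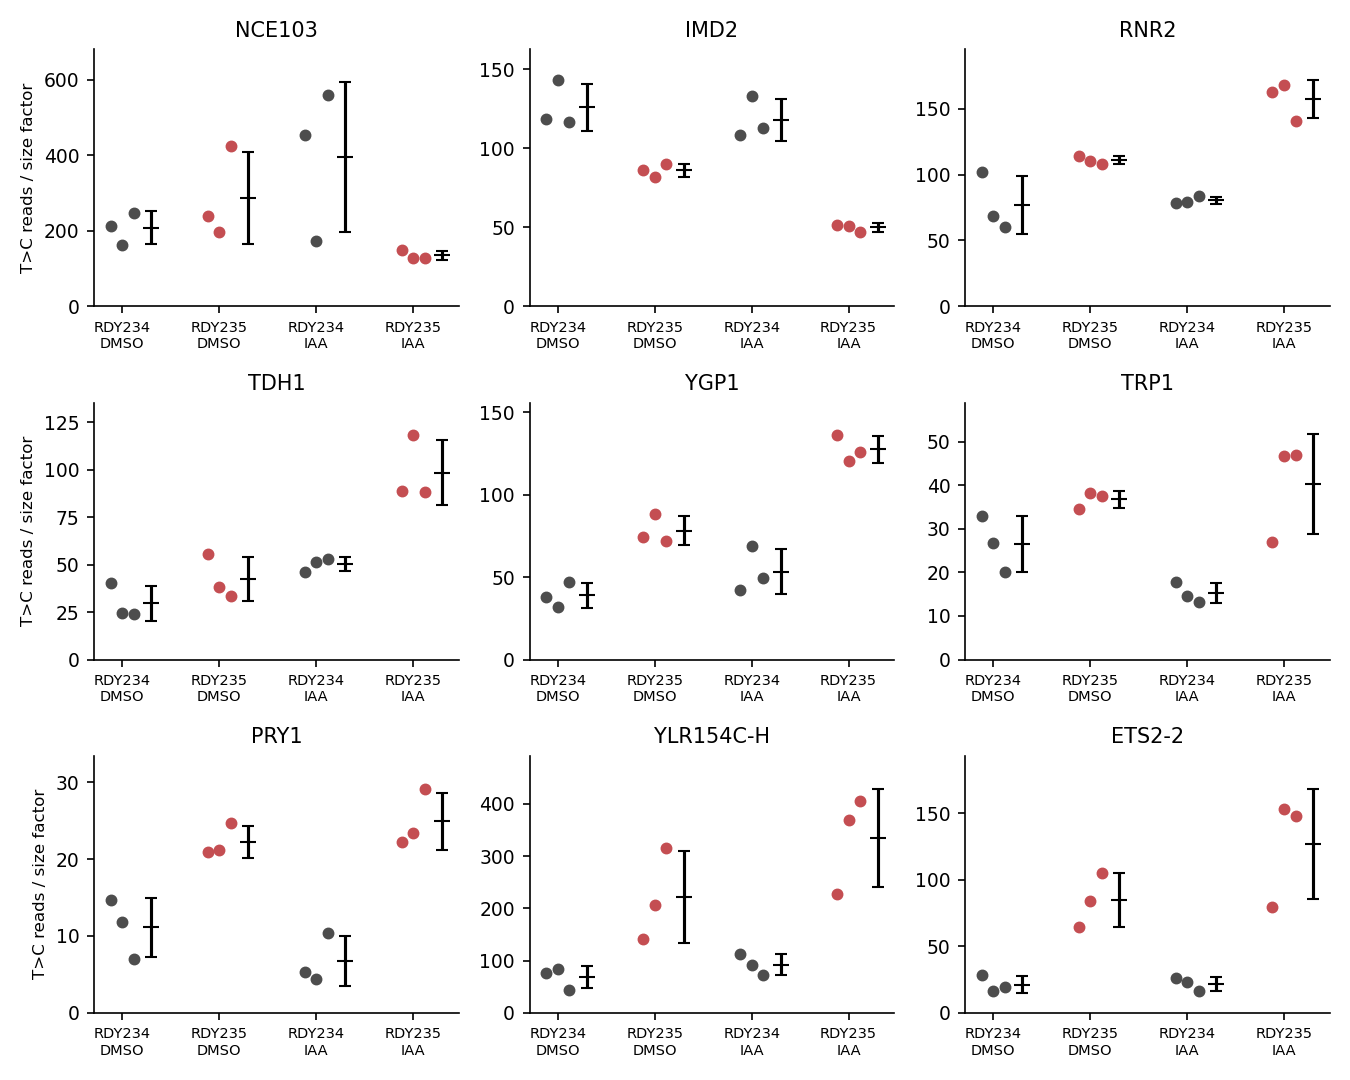
Normalized T>C reads (T>C reads divided by the spike-in size factor) of the 9 genes past an adjusted p of 0.05 under IAA. Points are libraries A to C of each group and bars are means ± SD. RNR2, TDH1, YGP1, TRP1, PRY1, YLR154C-H and ETS2-2 are higher and NCE103 and IMD2 lower in RDY235 IAA than in RDY234 IAA, and replicate B of RDY234 IAA stands low for NCE103.

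The same genes were set against RDY234 IAA in the strains with other bromodomain mutations, which share those control libraries. RDY236 carried pMD31:TRP1, with BD2 mutated, and RDY237 carried pMD32:TRP1, with both bromodomains mutated, in the same background. In RDY236 and RDY237 the T>C log2 differences of IMD2 were -1.44 and -3.58, and those of NCE103 were -1.08 and -2.09. YGP1 stood at 1.42 and 1.15, TDH1 at 1.85 and 1.69, and ETS2-2 at 2.10 and 1.94 in the same order. YLR154C-H stood at 1.90 in RDY236 and -0.15 in RDY237, and TRP1 at 1.22 and 0.09. PRY1 stood at 1.16 and 0.27, and RNR2 at 0.69 and 0.59. No test of the differences among the 3 mutants was made. The median over all genes was -0.21 in RDY236 and -1.54 in RDY237.

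The BDF genes themselves differed little. BDF1 (both copies together) had normalized T>C reads of 342, 411 and 421 in RDY234 IAA and 484, 524 and 506 in RDY235 IAA, a log2 difference of 0.37 (SE 0.204, adjusted p = 0.746). The 2 groups did not overlap in T>C reads, whereas total reads did, at 1356, 1606 and 1409 against 1345, 1659 and 1525 (0.05, adjusted p = 0.784). BDF2 was at 0.25 in T>C reads (adjusted p = 0.873) and URA3 at 0.18 (adjusted p = 0.929), and HIS3 had too few T>C reads to be tested.

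General stress genes had more total RNA in the BD1 mutant. Their list, of genes known as targets of the stress factors Msn2 and Msn4, had 27 tested members of 37. In total reads 13 rose (48.1%, against 1.07% of all genes), 0 fell (against 33.4% of all genes) and 14 did not pass. The list median was 0.55 against -0.31 for all genes. HSP12, a small membrane-bound stress protein, had normalized total reads of 1541, 1202 and 1419 in RDY234 IAA and 2920, 3414 and 3027 in RDY235 IAA (log2 difference 1.17, adjusted p = 9.41e-05). PGM2, the main phosphoglucomutase, went from 157, 187 and 140 to 340, 326 and 285 (0.98, adjusted p = 0.000122). For both genes every BD1-mutant library exceeded every library with unmodified BDF1. MSC1 went from 91.5, 64.4 and 74.99 to 167, 179 and 130 (1.03, adjusted p = 0.000175).

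Other members past the test, here named after their values were seen, were HSP26 (0.94), HXK1 (0.86), TSL1 (0.85), RTC3 (0.74), DDR2 (0.69), GAD1 (0.67), SPI1 (0.58) and GLK1 (0.55). They include a small heat shock protein, a hexokinase and a subunit of the trehalose synthase. In T>C reads the list median was 0.20 against -0.04 for all genes. There 2 of 27 members, YGP1 and TDH1, passed, against 0.176% of all genes. The median T>C share difference was -0.16 against 0.36 for all genes. In share 4 members were lower and 1 higher, against 0.156% and 33.6% of all genes. Some members had few T>C reads in the compared libraries. HSP26 had raw T>C counts of 1, 2 and 5 in RDY234 IAA and 6, 5 and 7 in RDY235 IAA. Under DMSO the list median in total reads was 0.25 against -0.25 for all genes, with 7 members higher (against 0.313% of all genes). With TMM scaling the list median under IAA was 0.86, with 20 members higher and 0 lower. Of the 25 Hsf1 chaperone genes, another arm of the stress response, 6 had fewer total reads (24.0%, against 33.4% of all genes) and 0 more. Their median of -0.25 was close to the -0.31 of all genes, and under TMM scaling it was 0.07 with 0 lower and 2 higher. SSA4 was the member with the most negative T>C difference (-0.91, adjusted p = 0.21).

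Msn2 and Msn4 bind the stress response element, whose core is AGGGG on either strand (CCCCT on the other). In the 500 bases before the start codon, this core was present in 33 of the 48 nuclear protein-coding genes with more total RNA (68.8%), in 484 of 1689 with less (28.7%) and in 1661 of all 4940 tested (33.6%). It was in 25 of 27 stress list genes (92.6%), a list chosen for this regulation, and in 20 of the 35 genes outside that list with more total RNA (57.1%). A match is a string in the sequence and not a shown binding site. To let the element be seen in its setting, the match nearest to the start codon (but at least 100 bases from it) is given for 6 of the genes, as 30 bases of the R64 genome from RefSeq, 5′ to 3′ on the strand of the gene, with the core in capitals.
YGP1, chrXIV:336099-336128, plus strand: acttctcgaagaAGGGGccgaaaattagcg
TDH1, chrX:338030-338059, plus strand: atagtctgaagaAGGGGgggaggagcatgt
HSP12, chrVI:107054-107083, plus strand: gttccggtcgtcCCCCTcttgatctgaaag
MSC1, chrXIII:16791-16820, minus strand: ggaggcggtgaaAGGGGatcgacagggtat
PGM2, chrXIII:477805-477834, minus strand: ccaggaacaaacAGGGGttgaaaagtgtaa
HSP26, chrII:381692-381721, plus strand: ggttattccctcCCCCTtatgcgtccaaaa
The cores began 434 bases before the start codon in YGP1, 229 in TDH1, 190 in HSP12, 132 in MSC1, 216 in PGM2 and 326 in HSP26. YGP1 had this 1 match in the 500 bases, whereas HSP12 and PGM2 had 5 each.

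IMD2 and NCE103 were among the 14 genes with at least 2-fold fewer total reads. With TMM scaling 4 genes were at least 2-fold lower, IMD2, NCE103, NFG1 and YOL014W, and 29 higher. The other 10 of the 14 did not pass at 2-fold there. Another, FUS1, needed for the fusion of mating cells, had normalized total reads of 127, 141 and 103 in RDY234 IAA and 47.6, 50.0 and 68.0 in RDY235 IAA (log2 difference -1.14, adjusted p = 0.00101). KAR4, a transcription factor of mating (named after its values were seen), went from 140, 155 and 171 to 77.0, 64.9 and 88.2 (-1.01, adjusted p = 0.000101). Neither gene overlapped between the strains in total reads, and their T>C differences, -0.92 and -0.78, did not pass (adjusted p = 0.215 and 0.409). NFG1, a regulator of filamentous growth, was at -1.34 (adjusted p = 0.000163). SLI1 was at -1.15, SMP3 at -1.03, RRG8 at -1.02, YFH7 at -1.02 and YOL014W at -1.32, and the remaining RFM1, GEP7 and BIO2 were each at -1.01.

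The small nucleolar RNA SNR67 had the most negative value (-1.80, adjusted p = 0.0278), but on uneven libraries. Its total reads were 5083, 6349 and 6203 in RDY234 IAA and 3599, 815 and 651 in RDY235 IAA, and under DMSO they ranged from 1320 to 7164 in RDY234 and from 556 to 4917 in RDY235. Its call was lost on leaving out RDY234 IAA replicate A or B, or RDY235 IAA replicate B or C, and under TMM scaling. Besides the stress and rDNA genes, those at least 2-fold higher were HPF1, a cell wall mannoprotein (1.16, adjusted p = 0.00536), and HXT7, a high-affinity glucose transporter (1.02, adjusted p = 6.87e-05). HXT7 total reads were 425, 447 and 383 against 840, 920 and 790 without overlap, and its T>C difference was 1.03 (adjusted p = 0.102). Of the 9 tested hexose transporter genes it alone had more total reads. Of these 9, 3 had fewer (33.3%, against 33.4% of all genes), and their median was -0.26.

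**Figure D4:**
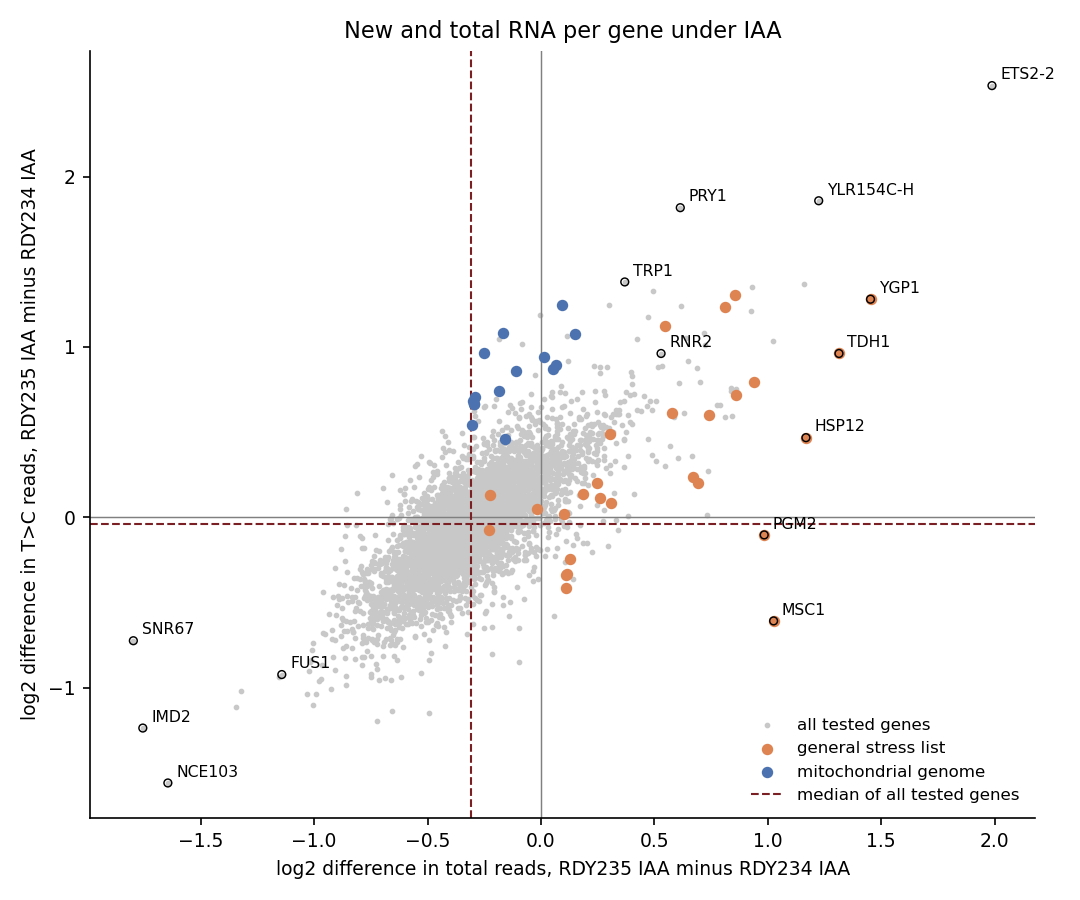
Log2 difference between RDY235 IAA and RDY234 IAA for each of 5118 genes, total reads on the x axis and T>C reads on the y axis. Orange marks the 27 tested general stress genes, blue the 15 tested mitochondrially encoded genes, and dashed lines the medians of all genes (-0.31 and -0.04). Stress genes spread to the right, and mitochondrially encoded genes lie above the cloud.

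The T>C share of a gene compares new with older RNA inside each library and needs no spike-in. It was higher in the BD1 mutant for 1719 genes (33.6%) and lower for 8 (0.156%), with a median log2 difference of 0.36. The count of 1727 fell to 1076 without RDY235 IAA replicate A and 1077 without RDY234 IAA replicate C. Without RDY234 IAA replicate A it was 1124 higher and 5 lower. Under DMSO it was higher for 2827 genes (55.2%). GAP1, the general amino acid permease, was among the calls with the largest differences under IAA. T>C reads made up 6.82%, 5.97% and 7.95% of its reads in RDY234 IAA and 14.3%, 13.98% and 19.6% in RDY235 IAA. The log2 difference in share was 1.33 (adjusted p = 0.0128). It rested on few T>C reads, 6.27 normalized on average in RDY234 IAA and 14.5 in RDY235 IAA. Its total reads hardly differed, at 92.5, 98.1 and 83.5 against 83.4, 99.0 and 90.6. Without RDY235 IAA replicate C the GAP1 call was lost (adjusted p = 0.0764). MED8, a Mediator subunit gene, rose by the same amount (1.33, adjusted p = 0.00131), as did RHB1 (1.32) and YPR172W (1.31).

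The 8 genes whose share fell were MSC1, PGM2, TPS2, SSA4, PNC1, GSC2, PFK26 and UGP1, of which TPS2, PNC1, GSC2, PFK26 and UGP1 were named after their values were seen. In PGM2, T>C reads made up 10.1%, 10.2% and 8.16% of reads in RDY234 IAA and 4.67%, 4.58% and 3.98% in RDY235 IAA (-1.17, adjusted p = 0.0071). In MSC1 they made up 13.8%, 6.82% and 15.2% against 4.29%, 5.95% and 1.86% (-1.78, adjusted p = 0.00199). Neither gene overlapped between the strains, but in MSC1 the nearest libraries were close, at 6.82% and 5.95%. Both shares rested on few T>C reads, for MSC1 9.47 normalized on average in RDY234 IAA and 6.74 in RDY235 IAA. The share differences under DMSO were 0.09 for PGM2 (adjusted p = 0.828) and 0.16 for MSC1 (adjusted p = 0.721). For these 2 stress genes total RNA under IAA was higher in the mutant while T>C reads were not, at -0.10 for PGM2 and -0.61 for MSC1. Over the 55 genes with more total RNA the median T>C difference was 0.68, and 53 of them were above 0. Of all genes, 55.8% were below 0. The 55 were picked by total reads of the same libraries, of which T>C reads are a part. Their T>C difference is therefore not independent of the choice.

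Mitochondrially encoded genes had a higher T>C share in the BD1 mutant. They are transcribed inside mitochondria by a separate polymerase, Rpo41, and encode subunits of the respiratory chain and the mitochondrial ribosomal RNAs. The share rose for all 15 tested (of 46 listed), by 0.64 for 15S_RRNA to 1.29 for SCEI, with a median of 0.98 against 0.36 for all genes. Summed over the list, T>C reads made up 0.494%, 0.635% and 0.472% of reads in RDY234 IAA and 0.990%, 0.971% and 1.13% in RDY235 IAA. Under DMSO the same shares were 0.479%, 0.366% and 0.531% in RDY234 and 0.703%, 0.799% and 0.920% in RDY235. The strains did not overlap under either treatment. How many of the T>C reads at these low shares unlabelled RNA would give was not measured. Nor was it tested how mRNA libraries sample these transcripts.

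In T>C reads the mitochondrial list had a median of 0.86 and 15 of 15 members above 0, but 0 of 15 passed the test, and in total reads the median was -0.17 with 0 called. COX1, a core subunit of cytochrome oxidase, was at 0.74 in T>C reads (adjusted p = 0.26), at -0.19 in total reads and at 0.95 in share (adjusted p = 2.23e-09). The 21S_RRNA of the large mitochondrial ribosomal subunit was at 0.86, -0.11 and 0.99 in the same order. Many of the 15 intervals lie in introns of COX1 or COB and share reads with them, so they are not 15 separate measurements. The share of mitochondrial reads among all S. cerevisiae reads was 2.25% in RDY234 IAA and 2.40% in RDY235 IAA and overlapped.

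Genes of the translation machinery had T>C and total-read medians near those of all genes. The 138 cytosolic ribosomal protein genes had a T>C median of 0.01 with 0 called, and a total-read median of -0.31 with 38 lower (27.5%, against 33.4% of all genes). The T>C share was higher in 115 of them (83.3%, against 33.6% of all genes), with a median difference of 0.33 against 0.36. These genes have many reads, and calls in the share were more frequent at high levels. Under TMM scaling their total-read median was 0.01 with 2 lower and 2 higher. Ribosome biogenesis genes (49) had medians of 0.03 and -0.30, with 21 lower in total reads (42.9%). The histone genes (10) were at 0.08 and -0.34, with 3 lower (30.0%). Genes of the complexes around Bdf1 gave similar medians in T>C and total reads: -0.02 and -0.24 for TFIID (15 genes), -0.04 and -0.29 for NuA4 (13), 0.01 and -0.34 for SWR1 (14) and -0.06 and -0.35 for SAGA (14), and none had a gene called in T>C reads. With TMM scaling the lower calls in total reads were 1 of 49 for ribosome biogenesis, 0 of 10 for histones, 1 for TFIID and 0 for NuA4, SWR1 and SAGA.

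Amino acid synthesis genes of the Gcn4 type (33 tested) had medians of 0.21 in T>C reads and -0.10 in total reads. In total reads 8 were lower and 3 higher (1 and 8 under TMM scaling). These were 24.2% and 9.09%, against 33.4% and 1.07% of all genes. ARG3, of arginine synthesis, had T>C reads of 6.31, 10.2 and 6.64 against 15.9, 21.3 and 21.0 under IAA (1.35, adjusted p = 0.234) and passed under DMSO (2.38). Cell wall and secreted protein genes (30) stood at 0.22 and -0.02, with 5 lower (16.7%) and 4 higher (13.3%) in total reads. In T>C reads 2 of them, YGP1 and PRY1, were higher. The proteasome genes (32) were at -0.13 and -0.33, with 16 lower in total reads (50.0%, against 33.4% of all genes), and 0 under TMM scaling. Of 6 spliceosomal RNAs the 2 forms of U5, SNR7-L (0.78, adjusted p = 0.0275) and SNR7-S (0.79, adjusted p = 0.0248), had more total reads, but they overlap and count as 1. SNR7-L was at 44.2, 29.3 and 44.6 against 45.3, 70.2 and 91.4.

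**Figure D5:**
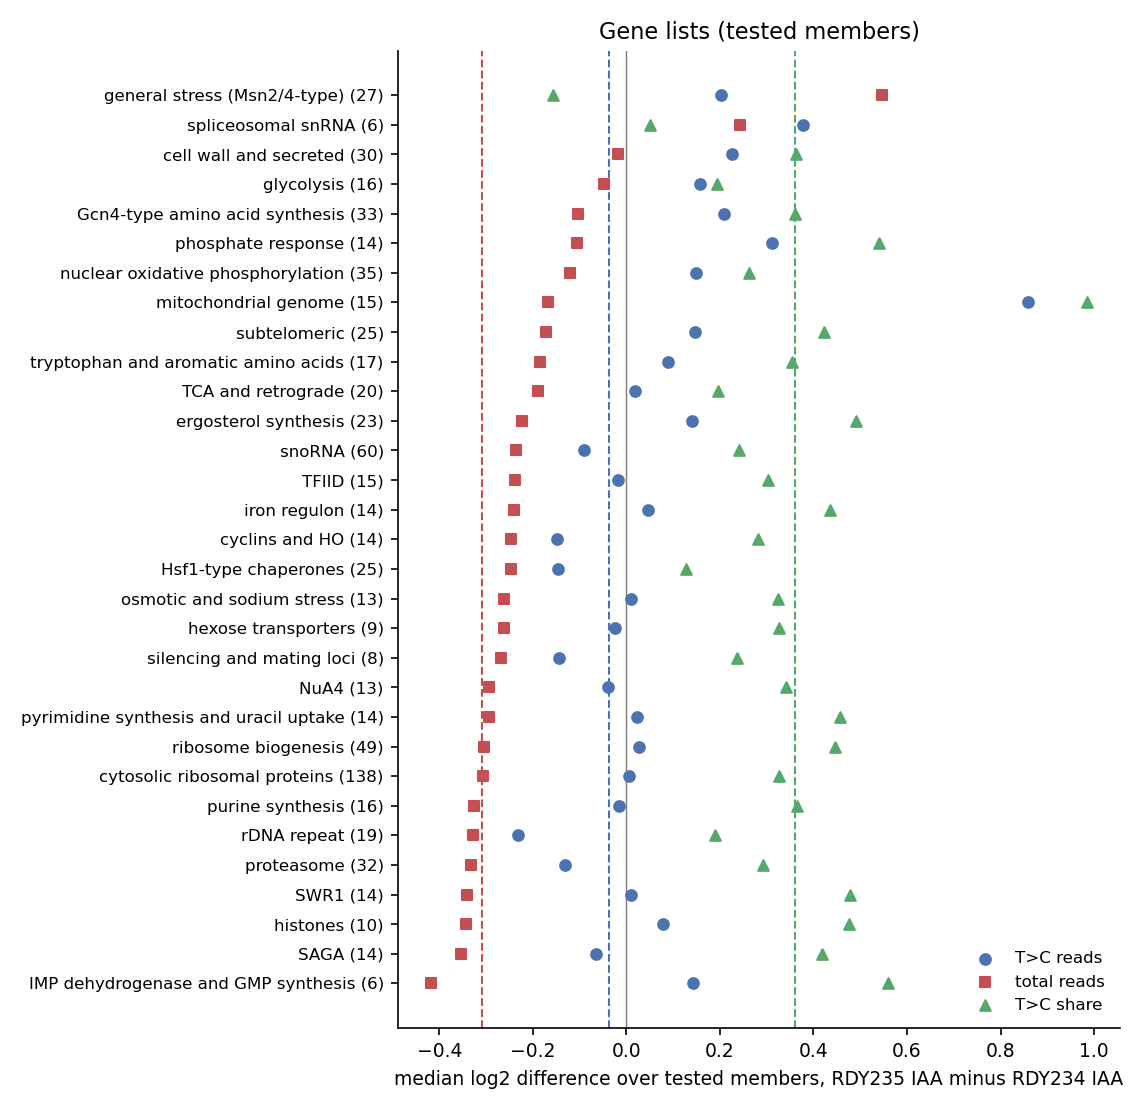
Median log2 difference, RDY235 IAA minus RDY234 IAA, over the tested members of each gene list (number in brackets), for T>C reads (circles), total reads (squares) and the T>C share (triangles). Dashed lines are the medians of all 5118 genes in the same colours. The general stress list has the highest median in total reads (0.55) and the mitochondrial genome the highest in T>C reads (0.86) and in share (0.98).

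How far the T>C reads of a gene fell on loss of Bdf1 and Bdf2 was taken from RDY73 after 3 h of IAA. The study used 3 h to see indirect effects build up, so these changes do not measure direct dependence. The RDY73 libraries do not enter the differences between RDY235 and RDY234. They do share the fit that sets the spread behind the adjusted p-values. Genes were split into 4 equal-sized sets by their T>C log2 change there, with medians of -6.79, -5.86, -5.29 and -4.45. In the same order the median T>C difference between RDY235 IAA and RDY234 IAA was -0.15, -0.07, -0.01 and 0.09, and the median in total reads was -0.41, -0.35, -0.29 and -0.17. Total reads were lower at an adjusted p under 0.05 for 48.9%, 43.6%, 28.1% and 13.1% of the genes. Of the 55 genes with more total reads, 42 lay in the set that changed least in RDY73. Under DMSO the total-read medians ran in the same order, -0.32, -0.28, -0.23 and -0.15. The set that fell most also had fewer T>C reads per gene, with a median count of 36.3 against 50.8, 59.3 and 51.3. The part of depth in this order was not tested. The lowest T>C share among the 48 libraries was 0.684%. How far T>C reads from RNA without 4tU set the rank of a gene in RDY73 was not tested either. A small fall there therefore need not mean a gene that was less affected.

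The comparison of the 2 strains under DMSO, which shares no library with that under IAA, showed much of the same pattern. In T>C reads 3 genes (0.0586%) were called, ETS2-2, YLR154C-H and ARG3, and the median was 0.10. In total reads 275 genes (5.37%) were lower and 16 (0.313%) higher, with a median of -0.25. Of the 275, 254 were also lower under IAA (92.4% of the DMSO list and 14.8% of the IAA list), and of the 16, 15 were also higher (93.8% and 27.3%). Among the 55 genes higher under IAA, the DMSO difference was above 0 in 55, with a median of 0.37, against 8.48% of all genes. Over 5118 genes, Pearson's r between the IAA and DMSO differences was 0.50 for T>C reads and 0.75 for total reads, across genes that are not independent replicates.

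The difference between the IAA and DMSO contrasts was tested directly. For T>C reads 0 genes (0%) passed with edgeR's quasi-likelihood test, and 57 had an unadjusted p under 0.05. The median of that difference was -0.13. Its 95% interval lay within 2-fold for 3176 genes (62.1%), so a 2-fold effect of auxin particular to the BD1 mutant was within the interval for the others. NCE103 passed in the fit of the 12 libraries compared, with replicate blocks, and without RDY234 IAA replicate B (-2.37, adjusted p = 0.0193). For total reads 42 genes had an unadjusted p under 0.05 and 0 passed after adjustment.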

How the data were processed

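The authors trimmed paired reads with fastp 0.23.2 and used SLAM-DUNK 0.4.3 to align, filter and count them on the R64 genome of S. cerevisiae and on that of S. pombe. The deposited values used here are raw counts per gene and library: all reads and T>C reads. Of 6465 counted intervals, 6460 run 250 bases past the gene end, and 1316 overlap another on the same strand. S. pombe cells were added at 1 to 19 by optical density.

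Each library was scaled by the median of ratios over 4955 S. pombe genes (the size factor). The 5118 genes that averaged 10 or more T>C reads per library over all 48 libraries were tested. Some of them averaged fewer in the compared libraries. The test was the quasi-likelihood test of edgeR 4.0.16 in R 4.3.3, in a single fit of all 48 libraries in 16 groups. Benjamini-Hochberg adjustment ran over all genes. A call needs an adjusted p under 0.05 and, where stated, 2-fold. The T>C share per gene set T>C against other reads within the 12 libraries of both strains. Whole-library values were compared by exact permutation. Normalized reads in the text are counts divided by the size factor, ± SD where a mean is given. Unlabelled libraries were not used here, and the T>C reads that RNA without 4tU gives are not known. Precision is limited by 3 libraries per group and by counting error. The scripts were tested on simulated data.

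The comparison, the members and the 34 gene lists were chosen with earlier results of these data known. Named genes were all T>C calls, up to 10 calls in total reads and 4 in the share in each direction, the strain genes, and up to 4 members of each list. Other names were chosen after their values were seen, as the text says. Alternatives covered scaling, tool, count minimum, libraries in the fit, replicate blocks and leaving out each library.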

Additional observations from a re-analysis of the deposited data

How the results depend on the processing

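Among the alternatives run, the T>C calls depended most on which libraries shared the estimate of spread. Against 7 called genes, there were 30 when only the 6 compared libraries were fitted, 13 with the same library series, 14 with TMM scaling, 15 with S. cerevisiae median-of-ratios scaling, 3 with DESeq2 (which gave no adjusted p to 4068 genes; 5 over all genes, an alternative chosen after seeing the data) and 4 to 6 on leaving out single libraries. YGP1, IMD2, ETS2-2 and YLR154C-H kept their T>C call under every alternative that gave them an adjusted p. The T>C median ranged from -0.083 to -0.013 without single libraries. Total-read calls, 22 (14 lower and 8 higher), became 33 (4 and 29, with 12 of the 22 kept) with TMM and with S. cerevisiae median of ratios, 67 with a minimum of 1 T>C read per library on average, 8 with 50 and 18 to 27 without single libraries. At any fold, 1766 became 482 with TMM, 480 with S. cerevisiae median of ratios, 882 at a mean of 50, 2892 with the compared libraries only, 2830 with the same series and 690 to 1544 without single libraries. The total-read median of -0.31 became 0.0061 with TMM and 0.0056 with S. cerevisiae median of ratios, which by construction centre the genes. For the T>C share, 67 genes at 2-fold became 3 at a mean of 50, and 1727 at any fold became 952 with limma on log2 ratios and 1076 to 1476 without single libraries. The 3 DMSO T>C calls became 6 with the compared libraries and 7 with the same series. The interaction, with 0 calls, gave 1 (NCE103) with the compared libraries and 0 to 1 without single libraries. Where no cause is named, the cause was not tested.

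Same-lettered libraries of RDY234 IAA and RDY235 IAA did not deviate together in T>C reads (r -0.13, 0.02 and -0.05 over 2442 genes), and those of RDY235 DMSO and RDY235 IAA gave 0.24, -0.06 and 0.28 (0.37, -0.13 and 0.45 in total reads). Not every pair correlated, so the letters were not taken to pair cultures. With the letter as a replicate block, T>C calls were 9 under IAA and 6 under DMSO, total-read calls 22 and interaction calls 1.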

Other observations

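Position and level gave 2 further descriptions of the same comparison. By chromosome, the median log2 difference in total reads under IAA ran from -0.36 (I) to -0.27 (III) among the nuclear chromosomes, and none stood apart in T>C reads, whereas the 15 mitochondrial genes had a T>C median of 0.86. By level, 4 equal-sized sets of genes from the lowest to the highest total reads in RDY234 DMSO had T>C medians of -0.10, -0.08, -0.02 and 0.02. The share was higher at an adjusted p under 0.05 in 10.2%, 19.9%, 39.0% and 65.2% of these sets, although their median share differences were close, at 0.33, 0.35, 0.38 and 0.37. The number of calls rose with level while the median difference hardly did.

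By kind of RNA, the 62 tested tRNA intervals had medians of -0.17 in T>C reads and -0.29 in total reads. Of them, 11 were lower and 3 higher in total reads. The 60 small nucleolar RNAs stood at -0.09 and -0.24, with 9 lower (15.0%). All genes had medians of -0.04 and -0.31, with 33.4% lower and 1.07% higher in total reads. How mRNA libraries sample these RNAs was not tested. The phosphate response genes (14) had a T>C median of 0.31 with 0 called. Their most expressed member PHO84, the high-affinity phosphate transporter, had a T>C share of 19.6%, 19.3% and 20.7% in RDY234 IAA and 27.8%, 26.8% and 27.5% in RDY235 IAA (share difference 0.60, adjusted p = 9.96e-07).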
